A study of Mus musculus with 10 samples.

Results

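Mammary tumours from mice named LP were compared with mammary tumours from mice named NZB across all genes on an Affymetrix oligonucleotide array. The comparison rests on 2 LP arrays and 2 NZB arrays, lettered A and B, which are 4 of the 10 arrays in the series. Each array was placed by the strain name in its sample title, while this pair of names was taken up with earlier results of these data known. Per the labels, the RNA of all 4 came from adult female mice of 90 days, and the mice of the series carry the MMTV-PyMT transgene. In such mice the polyomavirus middle T antigen is made in mammary epithelium from the promoter of the mouse mammary tumour virus. The strain label reads FVB/Nj on every array, so LP and NZB rest on the titles alone, and which cross stands behind each name is not given. The titles call each tumour sample a mix without saying what was mixed, and nothing says that arrays A and B came from separate animals. A p-value here is thus set against array-to-array spread alone, and that spread may be technical.

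Middle T antigen binds and activates cellular kinases at the membrane, and the resulting tumours keep part of the secretory program of the gland. Milk protein genes such as the caseins are switched on in mammary epithelium under prolactin, which acts through the transcription factor STAT5, and their transcripts can persist in these tumours. Mouse strains also differ in the alleles of the major histocompatibility complex (MHC), which encodes the proteins that present peptides to T cells, and in clustered gene families such as the major urinary proteins.

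Before the results, 1 of the 4 arrays stands apart. NZB A and NZB B correlated at r = 0.85 over 9899 tested probe sets, and 2157 of these differed more than 2-fold between them. LP A and LP B correlated at r = 0.96, with 460 probe sets more than 2-fold apart. NZB A was closer to LP B (r = 0.97, 360 probe sets) than to the other NZB array. LP B was likewise closer to NZB A than to LP A, so arrays of 1 title date were nearer than arrays of 1 name here. NZB B was closest to MOLF A, an array of another strain name (r = 0.93, 1044 probe sets). MOLF A in turn stood apart from MOLF B (r = 0.87, 1983 probe sets). It counts in the spread behind each p-value and in the ranges of the other strain arrays below. LP B and NZB A carry the same date in their titles, whereas LP A and NZB B each carry another, and what the date marks is not stated. A gene is therefore described below only where NZB A and NZB B agree or with both values shown, and the difference between LP B and NZB A is given as the value within 1 title date. The epithelial markers Krt8, Krt18, Krt19 and Epcam lay between 9.09 and 11.31 on all 4 arrays, on the log2 scale of normalized intensity that is used throughout. The actin 3′ to 5′ log2 ratio, a sign of RNA quality, was 0.94 to 1.12 on these 4 arrays, where the names overlapped. The other 5 strain arrays had lower actin ratios, from 0.22 to 0.78. For Gapdh the 2 sets of arrays overlapped, with 0.19 to 0.37 under LP and NZB against -0.41 to 0.31. How far RNA quality enters the comparisons with the other 5 arrays below was not tested. The lowest value possible on the scale of normalized intensity was a floor of 4.75, below which values were not distinguished.

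A single probe set passed the test of LP against NZB, and it belonged to a milk casein. Of 9899 probe sets, 0.0101% passed limma's moderated test at an adjusted p under 0.05, and 6.69% had an unadjusted p under 0.05. The other description used below counts probe sets whose LP arrays both lay beyond both NZB arrays by at least 1 log2 unit. There were 44 such probe sets higher in LP (0.444%) and 35 lower in LP (0.354%). Under median centring in place of quantile normalization the split was 53 higher and 26 lower.

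**Figure D1:**
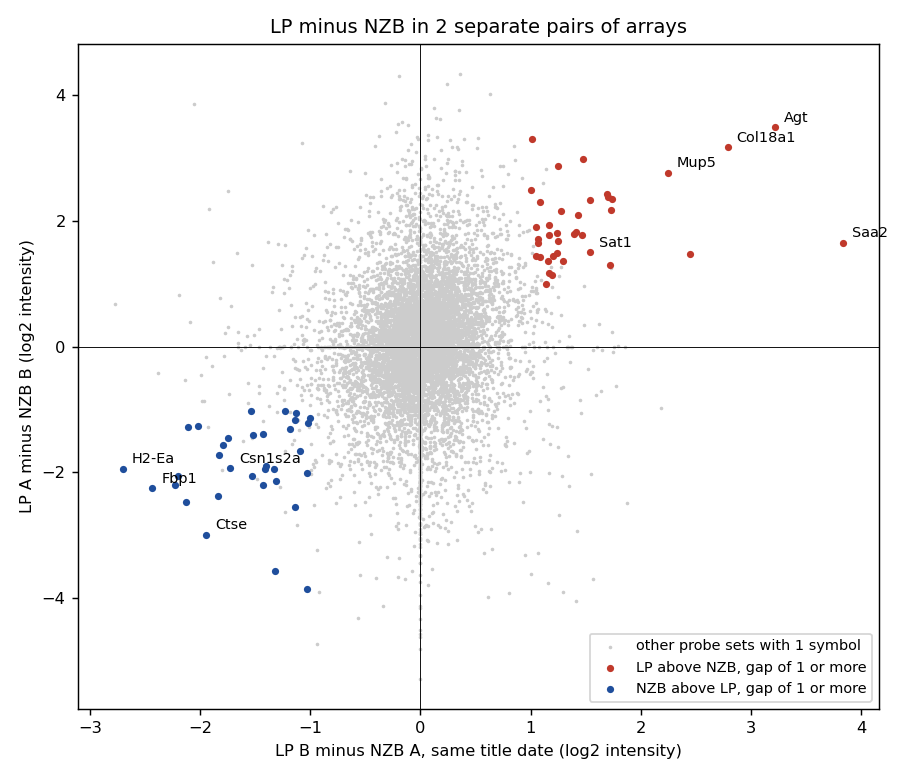
Each point is a probe set annotated to 1 gene; the x axis gives LP B minus NZB A, which share a title date, and the y axis gives LP A minus NZB B, both in log2 intensity. Red and blue points mark probe sets whose LP and NZB arrays were at least 1 log2 unit apart, higher or lower in LP; the cloud of grey points is wider along the y axis, the pair that holds NZB B.

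Csn1s2a, which encodes a calcium-sensitive casein of milk, fell in LP relative to NZB. It read 8.89 on LP A and 8.98 on LP B, against 10.70 on NZB A and 10.82 on NZB B. The groups did not overlap, and the other 5 strain arrays lay between them, from 9.31 to 9.89. The log2 difference was -1.83 (SE 0.139, 3.56-fold, limma adjusted p = 0.0231), with group means of 8.93 ± 0.06 in LP and 10.76 ± 0.09 in NZB (SD, n = 2 each). The call was lost with the title date as a block (-1.78, adjusted p = 0.493), with LP and NZB arrays fitted alone (-1.83, adjusted p = 0.743), without NZB B (-1.77, adjusted p = 0.168), without LP A (-1.79, adjusted p = 0.589) and without LP B (-1.88, adjusted p = 0.238). The difference itself stayed between -1.89 and -1.49 in every alternative, and the adjusted p ranged from 0.0122 to 0.765. No further probe set was annotated to Csn1s2a alone, so its values could not be set beside another reading. Whether its probes read both names alike was not tested. In pieces of whole tumour, fewer secreting cells and less transcript per cell cannot be told apart.

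The remaining caseins were split. Csn2, the beta-casein, read 10.76 and 10.33 in LP against 11.70 and 11.71 in NZB, a difference of -1.16 (adjusted p = 0.189). Csn1s1, the alpha-S1-casein, read 12.08 and 11.85 against 12.93 and 12.86, a difference of -0.93 (adjusted p = 0.521). Csn3, the kappa-casein that stabilises the micelle, read 13.05 and 12.93 against 12.69 and 13.002, so its groups overlapped (difference 0.14, adjusted p = 0.814). Both NZB arrays thus lay above both LP arrays for the 3 calcium-sensitive caseins named here and not for Csn3.

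The start regions of these casein genes are shown because their values lay on the same side, with Wap, whose values lay on the other side, for comparison. Each line gives 250 bases before to 50 bases after the annotated gene start, 5′ to 3′ on the coding strand, from RefSeq on build GRCm38.p6: Csn1s2a at chr5:87774200-87774499 (+), Csn2 at chr5:87699376-87699675 (-), Csn1s1 at chr5:87665958-87666257 (+) and Wap at chr11:6638600-6638899 (-). Capitals mark the motif TTCNNNGAA, the general form bound by STAT5, which reads the same on both strands.
Csn1s2a: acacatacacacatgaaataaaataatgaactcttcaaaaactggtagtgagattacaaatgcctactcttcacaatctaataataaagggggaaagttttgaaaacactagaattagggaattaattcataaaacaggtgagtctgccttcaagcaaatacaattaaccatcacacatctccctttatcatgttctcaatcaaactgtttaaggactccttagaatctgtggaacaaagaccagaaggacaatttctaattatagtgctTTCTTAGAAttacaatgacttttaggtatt
Csn2: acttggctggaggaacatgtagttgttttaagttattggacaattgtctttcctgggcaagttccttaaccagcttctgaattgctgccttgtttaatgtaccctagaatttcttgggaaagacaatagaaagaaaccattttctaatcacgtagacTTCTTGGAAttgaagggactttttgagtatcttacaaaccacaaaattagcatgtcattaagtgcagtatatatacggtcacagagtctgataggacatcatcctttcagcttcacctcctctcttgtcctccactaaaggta
Csn1s1: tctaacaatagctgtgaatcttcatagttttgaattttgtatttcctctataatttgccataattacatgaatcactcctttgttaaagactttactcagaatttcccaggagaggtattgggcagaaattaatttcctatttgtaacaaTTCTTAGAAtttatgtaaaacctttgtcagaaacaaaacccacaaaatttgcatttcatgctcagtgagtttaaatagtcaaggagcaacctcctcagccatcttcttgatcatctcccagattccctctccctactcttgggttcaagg
Wap: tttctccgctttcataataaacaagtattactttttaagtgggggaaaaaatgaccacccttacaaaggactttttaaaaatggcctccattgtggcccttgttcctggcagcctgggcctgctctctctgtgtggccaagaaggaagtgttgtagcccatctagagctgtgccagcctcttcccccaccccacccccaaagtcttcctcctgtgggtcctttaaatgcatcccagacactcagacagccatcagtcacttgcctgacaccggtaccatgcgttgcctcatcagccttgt

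The motif occurred 1 time in each of the 3 casein windows and did not occur in that of Wap. It began 93 bases before the start in Csn2 and 100 bases before it in Csn1s1, and it lay 20 bases past the start in Csn1s2a. It was also found 1 time in the window of Glycam1, 145 bases before the start, and in none of those of Lalba, Mfge8 and Muc1. Of 32851 promoter windows of the same length in the table, 8.30% held the motif. No start region was available for Csn3. The genes were chosen with their values known, so no link between the motif and the direction of difference can be read from these windows. A match describes letters in the sequence and not a bound site.

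Other secreted proteins of milk fell on both sides of zero. Mfge8, a glycoprotein of the milk fat globule, read 12.07 and 12.18 in LP against 13.12 and 12.90 in NZB, a difference of -0.88 (adjusted p = 0.276). Glycam1, a mucin-like protein of milk, read 8.10 and 8.19 against 8.72 and 9.19, a difference of -0.81 (adjusted p = 0.583). Wap, the whey acidic protein, read 11.53 and 10.91 against 10.59 and 10.19, a difference of 0.83 (adjusted p = 0.545). The groups of each of these genes did not overlap, but Wap was higher in LP.

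Lalba, the alpha-lactalbumin of lactose synthesis, read 12.24 and 11.97 against 11.60 and 11.41, a difference of 0.60 (adjusted p = 0.521). Muc1, a membrane mucin of luminal epithelium, read 10.26 and 9.89 against 9.26 and 8.78, a difference of 1.06 (adjusted p = 0.521). Over the 23 tested genes of the milk list, 7 had both LP arrays above both NZB arrays and 9 had both below, where 19.7% and 15.1% of all 7098 tested genes did so. Only Csn1s2a of the list passed the test, and at the level of genes 0.0141% of those tested passed. The median difference of the list was -0.01, beside 0.00 over all tested genes. That median was -0.27 within 1 title date, 0.07 without LP B and 0.21 under median centring, which moved the median of all probe sets by 0.105. Of the regulators on the epithelial list, Stat5a read 9.82 and 9.72 against 9.62 and 9.40, and Elf5, a factor of alveolar cells, 10.32 and 10.08 against 10.66 and 10.73.

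**Figure D2:**
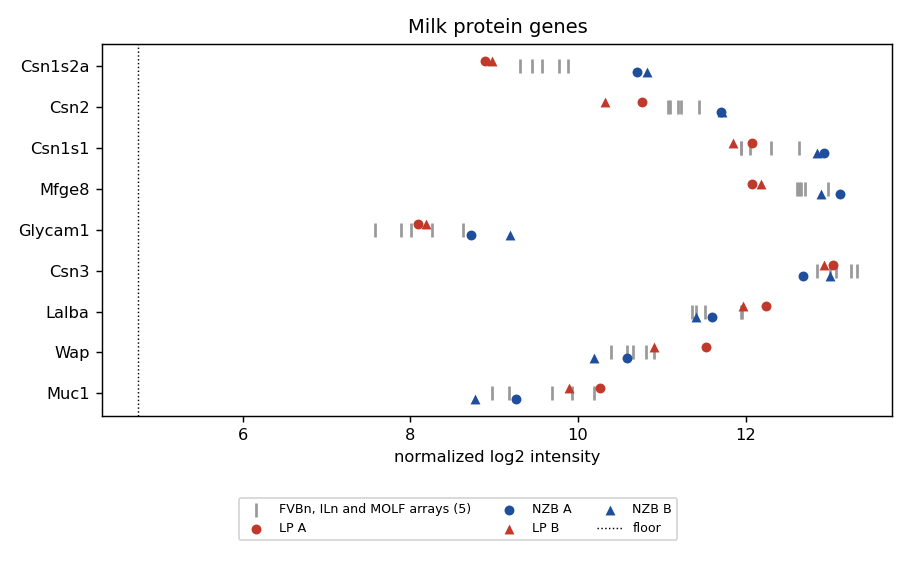
Normalized log2 intensity of 9 milk protein genes on each array, with LP in red, NZB in blue, the other 5 strain arrays as grey ticks and the floor as a dotted line. Csn1s2a, Csn2, Csn1s1, Mfge8 and Glycam1 lay higher on both NZB arrays, Lalba, Wap and Muc1 higher on both LP arrays, and Csn3 overlapped.

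The widest gaps in the LP direction were in genes of unrelated function. Agt, the precursor of angiotensin, read 8.40 and 8.47 in LP against 5.24 and 4.91 in NZB, a difference of 3.36 (SE 0.512, 10.2-fold, adjusted p = 0.164). Both LP arrays lay above the other 5 strain arrays as well, which ran from 4.77 to 6.22. Col18a1, whose product is a basement membrane collagen and the source of endostatin, read 8.48 and 7.81 against 5.02 and 5.31, a difference of 2.98 (adjusted p = 0.276). Here NZB was the group that stood outside the other 5 arrays (6.46 to 8.46). The other tested probe sets of Col18a1 differed by 0.68, 0.56 and 0.06.

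Mup5, a major urinary protein that binds small odorants, read 7.52 and 7.00 in LP and lay at the floor on both NZB arrays. It was at least 5.69-fold higher in LP (log2 difference 2.51, SE 0.257, adjusted p = 0.0505). The other 5 arrays read from 7.48 to 9.67, so NZB was the group at the low end. The call fell just outside the threshold; it passed with the floor at the 20th percentile (3.22, adjusted p = 0.0221) and with a filter on the LP and NZB arrays alone (adjusted p = 0.0322). The suffix of this probe set marks probes shared by a gene family, so that related urinary protein genes may contribute. Probe sets of other genes named here carry the same suffix and share this limit, among them Mup3, Saa2, Ctse, H2-Q4, Notch4, Tnnc2, Nqo1 and Gstm5. Mup3 read 6.91 and 6.03 in LP and the floor on both NZB arrays (at least 3.28-fold higher, adjusted p = 0.521), and a further probe set of it was at the floor on all 4 arrays. The remaining urinary, odorant-binding and secretoglobin genes gave no such split. Over all tested genes 19.7% separated upwards and 15.1% downwards. Of 9 tested genes of the urinary list, 2 separated upwards (22.2%, both named here) and 2 downwards (22.2%), with a median difference of 0.04. One of the latter was Apod, a lipid-binding lipocalin, at the floor on both LP arrays against 6.86 and 6.03 in NZB (at least 3.23-fold lower in LP, adjusted p = 0.523).

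Sat1, the acetyltransferase that starts the breakdown of spermidine and spermine, read 10.79 and 10.69 in LP against 9.14 and 9.29 in NZB. The other 5 arrays filled the space between the groups, from 9.83 to 10.32. The difference was 1.52 (SE 0.157, 2.87-fold, adjusted p = 0.0505), which passed with the filter on the LP and NZB arrays alone (adjusted p = 0.0322). Sat1 was thus a bright gene with a tight spread within each name, and its difference ranged from 1.45 to 1.92 over the alternatives.

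Of the other genes with the widest gaps, Saa2, a serum amyloid A protein of the acute phase, read 11.28 and 11.12 in LP against 7.28 on NZB A and 9.63 on NZB B, so that the NZB arrays differed from each other by more than the gap to LP. The difference was 2.74 (adjusted p = 0.494), and 3.92 without NZB B (adjusted p = 0.0133), where it was the 1 probe set past the test. A further Saa2 probe set read 12.03 and 12.25 against 11.33 and 11.37, a difference of 0.79 (adjusted p = 0.276). Gjb1, the gap junction protein connexin 32, read 7.15 and 6.80 against 5.26 and 4.82 (difference 1.93, adjusted p = 0.521). Both LP arrays lay above the other 5 (4.79 to 6.50).

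Lsp1, an actin-binding protein of leukocytes, read 7.12 and 7.19 in LP against 5.49 and the floor in NZB (2.04, adjusted p = 0.584). Its further probe set read 7.74 and 7.15 against 6.90 on NZB A and the floor on NZB B, so that the difference of 1.62 there was 0.25 within 1 title date. Abcf2, an ATP-binding cassette protein, read 7.10 and 7.14 against 5.40 and the floor (2.04, adjusted p = 0.720). Tgfb1, the growth factor, read 6.85 and 6.18 with both NZB arrays at the floor (1.76, adjusted p = 0.596). Ighv3-6, an immunoglobulin heavy chain variable segment, read 6.22 and 7.21 with both NZB arrays at the floor (1.96, adjusted p = 0.586). These dim genes share the limit that their NZB value is a bound.

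The probe sets of 2 genes disagreed. A probe set of the receptor Notch2 read 7.73 and 6.45 in LP against 4.98 and the floor in NZB (2.23, adjusted p = 0.654), while its other probe set read 6.03 and 5.88 against 6.56 and 6.19 (-0.42). A probe set of Wars, the tryptophanyl-tRNA synthetase, read 6.57 and 6.16 against the floor (1.61, adjusted p = 0.521), while the others overlapped, at 8.28 and 8.65 against 8.45 and 9.07 (-0.29) and at 7.45 and 7.88 against 7.69 and 6.30 (0.68). Levels of these genes cannot be read from 1 probe set.

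**Figure D3:**
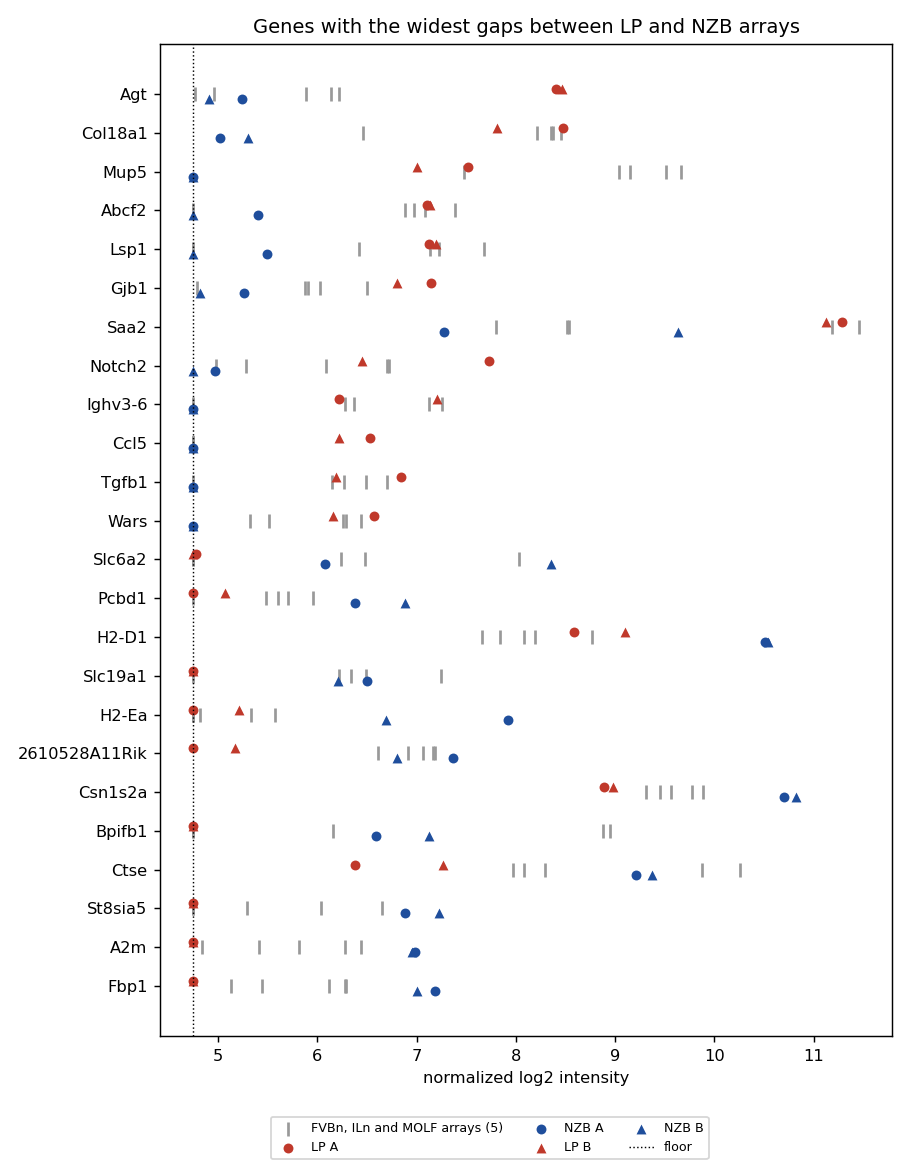
Normalized log2 intensity on each array for the 12 genes with the widest gap in each direction, from Agt at the top (higher in LP) to Fbp1 at the bottom (lower in LP). LP arrays are red, NZB arrays blue, the other 5 strain arrays grey ticks, and the dotted line is the floor of 4.75; for Saa2 and Slc6a2 the NZB arrays lay more than 2 log2 units from each other.

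In the NZB direction the widest gaps included metabolic and secreted proteins that were at the floor in LP. Fbp1, the fructose-1,6-bisphosphatase of gluconeogenesis, was at the floor on both LP arrays and read 7.19 and 7.00 in NZB (at least 5.07-fold lower in LP, adjusted p = 0.146). The other 5 arrays ran from 5.13 to 6.29, so both groups lay outside them on opposite sides. A2m, the protease inhibitor alpha-2-macroglobulin, was at the floor on both LP arrays and read 6.98 and 6.96 in NZB (at least 4.64-fold, adjusted p = 0.189). It too had the other 5 arrays in between, from 4.84 to 6.44.

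St8sia5, a sialyltransferase of gangliosides, was at the floor in LP and read 6.88 and 7.23 in NZB (at least 4.93-fold, adjusted p = 0.189). Bpifb1, a secreted protein of the bactericidal/permeability-increasing fold, was at the floor in LP and read 6.59 and 7.12 in NZB (at least 4.30-fold, adjusted p = 0.221). The other 5 arrays ran from the floor to 8.94 for Bpifb1, so neither group stood outside them. Pcbd1, a dehydratase of pterin recycling, read the floor and 5.07 in LP against 6.38 and 6.88 (-1.72, adjusted p = 0.521). The uncharacterised transcript 2610528A11Rik read the floor and 5.17 in LP against 7.37 and 6.80 (-2.13, adjusted p = 0.258).

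Ctse, the aspartic protease cathepsin E, was measured by 3 probe sets. The first read 6.38 and 7.27 in LP against 9.21 and 9.37 in NZB (-2.47, adjusted p = 0.117), and the next 7.94 and 8.15 against 9.94 and 9.51 (-1.68, adjusted p = 0.0830). The third was near the floor on all 4 arrays (-0.19, adjusted p = 0.826). On the 2 brighter probe sets LP lay below the other 5 arrays, and NZB lay among them. The second of the 3 has the suffix of probes shared by a gene family, so related genes may contribute to it. The third, which showed no separation, has no such suffix.

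Disagreement between probe sets also limits 2 transporters. Slc6a2, the noradrenaline transporter, on 1 probe set read 4.78 and the floor in LP against 6.08 and 8.35 in NZB (-2.45, adjusted p = 0.720), and its other probe set read 6.50 and 5.60 against 5.27 and 4.95 (0.94). Slc19a1, the reduced folate carrier, on 1 probe set was at the floor in LP and read 6.50 and 6.20 in NZB (-1.60, adjusted p = 0.720), and its other probe set read 7.33 and 7.38 against 7.28 and 6.22 (0.61). Among probe sets with no single gene name, 1 annotated to more than 1 gene read 9.74 and 9.77 in LP against 11.88 and 11.47 in NZB (-1.92, adjusted p = 0.0505), with the other 5 arrays between 9.73 and 10.13.

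A set of genes named after their values were seen had smaller differences but little spread. Slpi, a secreted leukocyte protease inhibitor, read 8.52 and 8.24 in LP against 9.67 and 9.91 in NZB (-1.41, adjusted p = 0.146). St6galnac2, a sialyltransferase, read 8.21 and 8.33 against 9.47 and 9.38 (-1.15, adjusted p = 0.152). Wls, which carries Wnt proteins to the cell surface, read 9.33 and 9.41 against 8.24 and 8.16 (1.17, adjusted p = 0.164). Arg1, the arginase of the urea cycle and of some macrophages, read 9.74 and 9.70 against 8.79 and 8.72 (0.96, adjusted p = 0.164). In each the gap between the groups was wider than the range within either group.

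The MHC genes did not differ as a block. H2-D1, a class I heavy chain, was measured by 3 probe sets whose probes are shared among class I genes. The first read 8.58 and 9.10 in LP against 10.51 and 10.53 in NZB (-1.68, SE 0.302, adjusted p = 0.258). The NZB arrays lay above all 7 other strain arrays on this probe set. The second read 12.06 and 12.16 against 11.95 and 11.99 (0.14, adjusted p = 0.784), and the third 12.19 and 11.95 against 12.18 and 12.46 (-0.25, or 0.25 under median centring). A low H2-D1 in LP is therefore a statement about 1 of 3 probe sets.

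Among the other class I genes, H2-K1 read 12.44 and 12.50 in LP against 12.39 and 12.60 in NZB (-0.02, adjusted p = 0.972). B2m, the light chain shared by class I molecules, read 11.77 and 11.60 against 11.77 and 11.57 (0.01, adjusted p = 0.993). Both pairs overlapped while lying above the other 5 arrays, which reached 11.78 for H2-K1 and 10.67 for B2m. H2-Q4, a class I gene of the Q region, read 10.91 and 10.31 against 9.89 and 9.67 (0.83, adjusted p = 0.654). Psmb10, a subunit of the immunoproteasome, read 8.92 and 8.72 against 8.47 and 7.94 (0.62, adjusted p = 0.720). Of 22 tested genes of class I and peptide loading, 0 passed the test, 9 separated upwards (40.9%) and 1 downwards (4.55%), where 19.7% and 15.1% of all tested genes did so. The median was 0.23, and it was 0.11 without NZB B and 0.12 within 1 title date.

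In class II the alpha chain H2-Ea lay on the opposite side from the other chains named here. It read the floor and 5.22 in LP against 7.92 and 6.69 in NZB (-2.32, SE 0.487, adjusted p = 0.382), and both NZB arrays lay above the other 5, which reached 5.58. Its partner H2-Eb1 read 9.28 and 8.88 in LP against 8.64 and 7.33 in NZB (1.09, adjusted p = 0.720), a difference that was 0.44 without NZB B and 0.24 within 1 title date. H2-Aa read 9.87 and 9.81 against 9.78 and 9.30, and H2-Ab1 8.47 and 8.20 against 7.92 and 8.30. The class II transactivator Ciita read 6.45 and 6.51 against 7.02 and 6.89 (-0.48, adjusted p = 0.720). Of 12 tested class II genes 3 separated upwards and 2 downwards, shares near the 19.7% and 15.1% of all tested genes. Their median was 0.13, and it was 0.03 without NZB B and 0.02 within 1 title date.

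**Figure D4:**
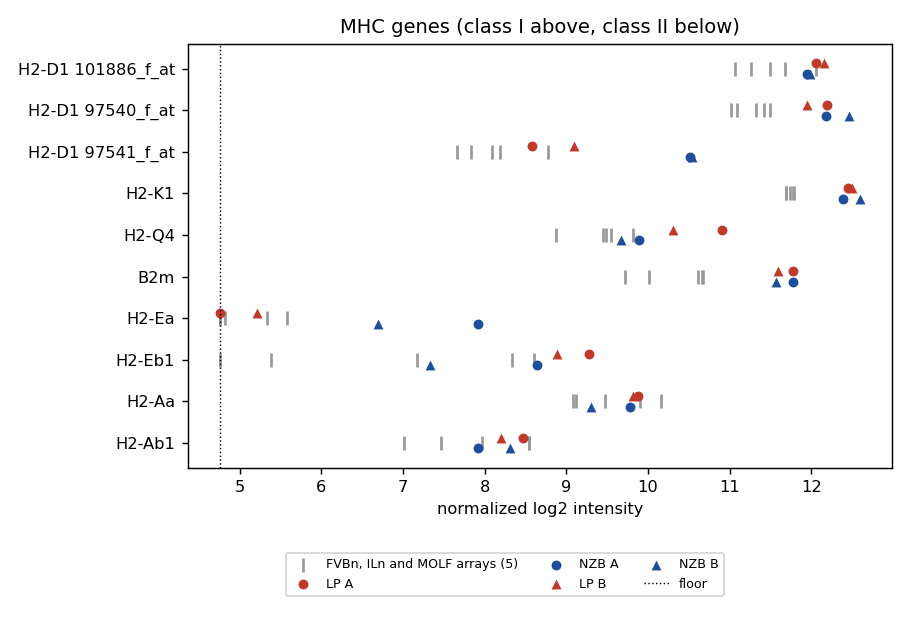
Normalized log2 intensity on each array for class I genes (3 probe sets of H2-D1, H2-K1, H2-Q4 and B2m) and class II genes (H2-Ea, H2-Eb1, H2-Aa and H2-Ab1), coloured as LP red, NZB blue and the other 5 arrays grey. NZB lay above LP on 1 probe set of H2-D1 and on H2-Ea, while H2-K1 and B2m overlapped at values above the other 5 arrays.

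Skeletal muscle genes were abundant on all 4 arrays, and the contrast between LP and NZB was small beside that. The mean of the 35 tested muscle genes, each centred on its mean over the 9 strain arrays, was 1.03 and 1.02 in LP, 0.74 and 0.61 in NZB, and from -1.15 to -0.27 on the other 5. Within the list 19 genes separated upwards in LP (54.3%) and 0 downwards, beside 19.7% and 15.1% of all tested genes, and the median difference was 0.39. It was 0.24 within 1 title date, and 0 members passed the test. The mean of the adipocyte list, centred in the same way, was 0.19 and 0.24 in LP and -0.11 and 0.01 in NZB. Among its defining markers Adipoq, a hormone of fat cells, read 8.40 and 8.14 against 7.63 and 6.97, whereas Fabp4 read 6.53 and 6.81 against 6.47 and 7.06. Of the 28 tested adipocyte genes 9 separated upwards (32.1%) and 3 downwards (10.7%). The part of carried-over muscle or fat in the result was not tested.

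Myl2, a myosin light chain of slow and cardiac muscle, read 6.25 and 5.997 in LP and the floor on both NZB arrays and on the other 5 (at least 2.58-fold higher, adjusted p = 0.164). Mb, the oxygen store myoglobin, read 8.20 and 7.86 against 7.07 and 6.36 (1.31, adjusted p = 0.704). Of the fast-fibre genes, Tnnc2, a troponin, read 9.83 and 9.83 against 8.99 and 9.09 (0.79, adjusted p = 0.614). Myh4, a fast myosin heavy chain, read 11.04 and 10.37 against 10.29 and 9.85 (0.63), and within 1 title date its difference was 0.07. Myh1 read 9.09 and 9.12 against 8.63 and 8.23 (0.67), and the calcium release channel Ryr1 read 7.57 and 7.44 against 7.08 and 6.14 (0.89). Acta1, the skeletal actin, overlapped at 11.64 and 11.48 against 11.49 and 11.55 (0.04, adjusted p = 0.935). The other defining muscle markers differed little. Ckm overlapped, at 7.61 and 7.95 in LP against 7.67 and 7.50 in NZB, as did Tnnt3, at 9.30 and 9.09 against 8.54 and 9.59. Mylpf read 7.97 and 8.12 against 7.94 and 7.62. Over the muscle list 8 of 35 tested genes were lower in LP, with a lowest difference of -1.33.

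Interferon response genes were likewise high under both names. Their list mean was 0.60 and 0.75 in LP, 0.46 and 0.31 in NZB, and from -0.72 to -0.17 on the other 5 arrays. Of 41 tested genes, 0 passed the test, and 14 separated upwards (34.1%) and 4 downwards (9.76%), beside 19.7% and 15.1% of all tested genes. The median difference was 0.27, and it was 0.11 without NZB B and 0.12 without LP B. Gbp2b, an interferon-induced GTPase, read 6.05 and 6.47 in LP and the floor on every other strain array (at least 2.85-fold higher than NZB, adjusted p = 0.164). Gbp3, of the same family, read 9.53 and 9.66 against 8.62 and 8.49 (1.04, adjusted p = 0.276). Both names lay above the other 5 arrays for Gbp3, which reached 7.98.

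Rsad2, the antiviral protein viperin, read 7.35 and 7.55 in LP against 6.43 on NZB A and the floor on NZB B (1.86, adjusted p = 0.583). Isg15, a ubiquitin-like modifier, read 9.64 and 9.68 against 9.12 and 9.25 (0.47, adjusted p = 0.720). Irf7, which drives interferon transcription, read 9.80 and 9.74 against 9.28 and 8.75 (0.75), and Ifit2 6.44 and 6.41 against 5.82 and 5.54 (0.75). The genes named so far from the interferon list were all higher in LP. Over that list 12 of 41 tested genes were lower in LP, with a lowest difference of -0.51. The Ifi200 family was not uniform: Ifi202b read 5.75 and 5.67 in LP against 7.32 on NZB A and 5.70 on NZB B (-0.80, and 0.01 without NZB A). Ifi204 read 7.22 and 6.595 against 6.91 and 5.33 (0.79, and -0.0039 without NZB B), and the median over 3 tested members was -0.42.

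Counts of separated leukocyte genes are read against the 19.7% upwards and 15.1% downwards of all tested genes. Ccl5, a chemokine of T cells, read 6.53 and 6.22 in LP and the floor on all 7 other arrays (at least 3.08-fold higher than NZB, adjusted p = 0.146), and Cd7 read 6.37 and 6.48 against 5.46 and 4.89 (1.25). The defining T cell marker Cd3d was at the floor on all 4 arrays, and Cd3g read 7.26 on NZB B and the floor on the other 3. Of 22 tested T and NK cell genes 3 separated upwards (13.6%) and 0 downwards, with a median of -0.07. The B cell and immunoglobulin list had 3 of 27 upwards (11.1%) and 7 downwards (25.9%, median -0.17), with Blnk, a B cell adaptor, at 8.63 and 8.67 against 8.41 and 7.53 and Pou2af1, a B cell coactivator, at 4.91 and 5.18 against 5.75 and 5.40. A further probe set of Blnk read 8.50 and 8.38 against 7.71 and 7.09 (1.04). That of Pou2af1 was at the floor on LP A, LP B and NZB A and read 6.30 on NZB B alone. The defining B cell marker Ms4a1 was lower on both LP arrays, at 7.07 and 6.62 against 7.16 and 7.60. Cd79a overlapped, at 7.32 and 6.85 against 6.88 and 7.42, as did Ighm, at 8.16 and 8.03 against 8.25 and 8.12. In the B cell and immunoglobulin list 18 of the 27 genes were lower in LP.

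Of 39 macrophage and myeloid genes, 10 separated upwards (25.6%) and 3 downwards (7.69%), with a median of 0.04. Mpeg1, a pore-forming protein of macrophages, read 8.69 and 8.85 against 8.23 and 7.92 (0.70, adjusted p = 0.720), and Apoe 11.42 and 11.73 against 11.20 and 11.03 (0.46). Of 19 neutrophil and acute phase genes 6 separated upwards (31.6%) and 5 downwards (26.3%, median -0.10), among them Ltf, the lactoferrin of milk and neutrophil granules, at 11.76 and 11.66 against 11.32 and 11.21 (0.44, adjusted p = 0.599). The erythroid list had 4 of 14 upwards (28.6%) and 3 downwards (21.4%), a median of -0.01, with the globin chain Hbb-b2 at 6.67 and 7.36 against 8.46 and 7.999 (-1.21, adjusted p = 0.630). Car2, a carbonic anhydrase on the same list, read 8.93 and 9.04 against 7.84 and 7.99 (1.07, adjusted p = 0.164). The defining erythroid marker Hba-a1 read 8.68 and 8.70 against 9.29 and 8.94, and Alas2 read 5.09 on LP A and the floor on the other 3.

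Of 56 genes of the mitochondrial respiratory chain 28 separated upwards and 4 downwards (7.14%), beside 19.7% and 15.1% of all tested genes. Their median was 0.27, or 0.16 both without NZB B and within 1 title date. Sdhb, a subunit of succinate dehydrogenase, read 9.38 and 9.32 against 8.84 and 8.75 (0.55, adjusted p = 0.626), and Ndufs1, of complex I, 8.51 and 8.50 against 7.97 and 8.02 (0.52, adjusted p = 0.702). Cox6a1, of cytochrome oxidase, read 11.26 and 11.27 against 10.86 and 10.71 (0.48, adjusted p = 0.521), and Atp5k, of ATP synthase, 6.97 and 6.12 against 5.44 and the floor (1.45, adjusted p = 0.586). Of the 56, 0 passed the test. All genes named here were higher in LP, whereas 15 of the 56 were lower, with a lowest difference of -1.03. The muscle list, whose fibres are rich in mitochondria, also had a median above 0, and its part in this result was not tested.

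Of 47 cell cycle genes 16 separated upwards (34.0%) and 6 downwards (12.8%), beside 19.7% and 15.1% of all tested genes. Their median was 0.20, or 0.10 without NZB B and 0.06 within 1 title date. Rrm2, a subunit of ribonucleotide reductase, read 8.99 and 8.93 against 7.87 and 8.13 (0.96, adjusted p = 0.521), and its partner Rrm1 8.81 and 8.06 against 7.54 and 5.49 (1.92, adjusted p = 0.627, and 0.89 without NZB B). Tacc3, a spindle protein, read 5.63 and 5.79 against 4.98 and the floor (0.84, adjusted p = 0.627). The value of Rrm1 rests on NZB B, which was more than 2 log2 units below NZB A. All cell cycle genes named here were higher in LP, whereas 13 of the 47 were lower, with a lowest difference of -0.67.

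Epithelial genes other than Ctse lay on both sides of zero. Krt8 and Krt18, the luminal keratins, differed by 0.43 and 0.49 (adjusted p = 0.720 each), and the tight junction protein Cldn3 by 0.50 (adjusted p = 0.586). The markers Krt19 and Epcam were not higher on both LP arrays. Krt19 overlapped, at 9.56 and 9.21 in LP against 9.09 and 9.27 in NZB, and Epcam read 9.26 and 9.28 against 9.43 and 9.28. Elf3, an epithelial transcription factor, read 8.44 and 8.22 against 7.61 and 7.20 (0.93, adjusted p = 0.720). Mylk, the myosin light chain kinase of contractile cells, read 7.85 and 7.96 against 8.57 and 9.32 (-1.04, adjusted p = 0.521). Of 44 genes 17 separated upwards (38.6%) and 9 downwards (20.5%), beside 19.7% and 15.1% of all tested genes, and the median of 0.20 was 0.10 without NZB B. Salivary gland genes had a centred list mean of -1.12 and -1.34 in LP and -1.26 and -1.67 in NZB. Amy1 was at the floor on all 4 arrays, and Smr3a on all but NZB A (6.35). Bpifa2 read 7.18 and 5.72 in LP against 6.02 and 5.38 in NZB, and Pip 6.16 and the floor against 5.83 and the floor. Of 17 tested salivary genes 4 separated upwards (23.5%) and 0 downwards (median 0.09). Car6, a secreted carbonic anhydrase of saliva and milk, had the highest difference of the list. It read 10.67 and 9.89 in LP against 8.16 and 8.49 in NZB (1.95, SE 0.265, adjusted p = 0.146). The cathepsin Ctsl read 9.47 and 9.15 against 8.86 and 8.67 (0.54).

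Fbln2, a matrix glycoprotein, read 8.02 and 8.25 in LP against 9.06 and 9.39 in NZB, with no overlap (-1.09, SE 0.196, adjusted p = 0.258). Of 56 fibroblast and matrix genes 7 separated upwards (12.5%), Col18a1 among them, and 14 downwards (25.0%), with a median of -0.09. The defining fibroblast marker Col1a1 overlapped, at 10.34 and 10.20 in LP against 10.45 and 9.87 in NZB. Col1a2 read 9.58 and 9.40 against 9.70 and 10.17, and Col3a1 8.53 and 8.58 against 8.87 and 8.74. Pdgfra read 6.57 and 7.26 against 7.35 and 7.28, so Col1a2, Col3a1 and Pdgfra were lower on both LP arrays. Of 20 endothelial genes 5 separated upwards (25.0%) and 2 downwards (median 0.06). Over all tested genes these shares were 19.7% and 15.1%. Kdr, a receptor for vascular endothelial growth factor and a defining marker of endothelium, was lower in LP. It read 4.88 and 5.98 against 6.43 and 7.87 in NZB (-1.71, adjusted p = 0.720, and -0.45 within 1 title date). Of the other defining markers Pecam1 overlapped, at 6.07 and 6.69 in LP against 6.13 and 5.39 in NZB. Cdh5 read 6.02 and 6.22 against 6.34 and 6.28, and Tek was at the floor on all 4 arrays. Sox17, a transcription factor of arterial endothelium, read 6.54 and 6.34 against 4.94 and the floor (1.59, adjusted p = 0.399). A probe set of the receptor Notch4 read 12.30 and 12.00 against 11.67 and 11.44 (0.59, adjusted p = 0.720), while its other probe set differed by 0.10 near the floor.

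Fat cell genes named by the rule were Plin4, a coat protein of lipid droplets, at 5.46 and 5.54 in LP against the floor (0.75, adjusted p = 0.521), and G0s2, an inhibitor of lipolysis, at 9.54 and 9.32 against 8.31 and 8.67 (0.94, adjusted p = 0.459). Lipe, the hormone-sensitive lipase, read 7.25 and 6.91 against 5.91 and the floor (1.75), Retn, the hormone resistin, 6.11 and 5.91 against the floor (1.26), and Lpl, lipoprotein lipase, 7.57 and 7.31 against 7.01 and 6.05 (0.91). On the other side the 3 separated downwards were Fasn, the fatty acid synthase, at 8.89 and 9.20 against 9.36 and 9.88 (-0.58), the fatty acid binding protein Fabp5 at 8.25 and 8.40 against 8.61 and 9.17 (-0.56), and Mgst1, a microsomal glutathione transferase, at 9.18 and 8.92 against 9.42 and 9.52 (-0.42). Lep, the hormone leptin, had the lowest difference of the list (-0.86) with overlapping groups, at 7.67 and 8.47 against 8.34 and 9.52. The median of the adipocyte list was 0.18, and it was 0.29 within 1 title date and 0.04 without LP B. None of its genes passed the test.

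Counts of separated detoxification and stress genes stand beside the 19.7% upwards and 15.1% downwards of all tested genes. Nqo1, a quinone reductase, read 6.64 and 6.92 in LP against 8.10 and 7.94 in NZB (-1.24, adjusted p = 0.521), and its further probe set read 6.12 and 6.21 against 7.20 and 8.08 (-1.48). Gstm5, a glutathione transferase, on 1 probe set read 9.83 and 10.09 against 10.41 and 10.64 (-0.57), while its others differed by -0.32, 0.01 and 0.79. Of 38 genes of that list 8 separated upwards (21.1%) and 7 downwards (18.4%, median -0.12). Hsp90aa1, an inducible chaperone, read 11.13 and 11.21 against 10.19 and 10.48 (0.84, SE 0.146, adjusted p = 0.250). Its further probe set was at the floor on 3 arrays and read 8.07 on NZB B. Hspa1a, the inducible Hsp70, read 7.87 and 7.92 against 8.61 and 8.52 (-0.67, adjusted p = 0.720). Of 32 heat shock genes 5 separated upwards (15.6%) and 7 downwards (21.9%, median 0.09).

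Of 27 immediate early genes 8 separated upwards (29.6%) and 6 downwards (22.2%, median 0.08), beside 19.7% and 15.1% of all tested genes. Klf4 read 6.35 and 7.20 against 5.47 and 5.10 (1.49, adjusted p = 0.541), and Egr1 7.78 and 7.91 against 8.57 and 8.47 (-0.67, adjusted p = 0.691), both being transcription factors of the early response. The further probe set of Egr1 lay near the floor and differed by 0.20. Of 30 ribosomal protein genes 2 separated upwards (6.67%) and 5 downwards (16.7%, median -0.04, or 0.41 under median centring). Rps19 read 10.34 and 10.60 against 11.40 and 10.65 (-0.55), and Rpl13a 9.63 and 9.48 against 9.93 and 9.66 (-0.24, or 0.10 under median centring). Of 52 genes studied as modifiers or markers of metastasis, 15 separated upwards (28.8%), Sat1 among them, and 9 downwards (17.3%, median 0.12), and Itgb4, an integrin of hemidesmosomes, read 9.25 and 9.59 against 8.85 and 8.45 (0.77, adjusted p = 0.521).

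**Figure D5:**
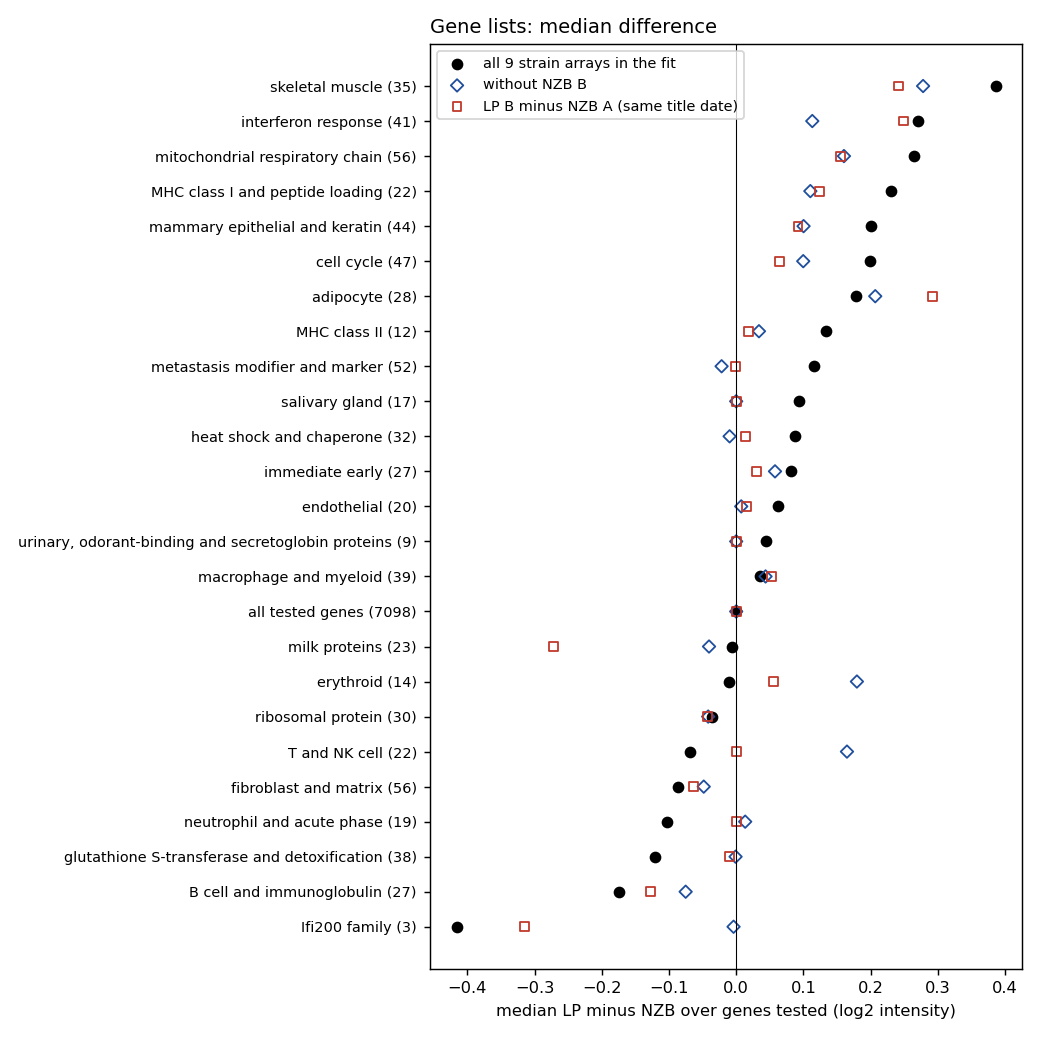
Median LP minus NZB difference (log2) of each gene list, with the number of tested genes in brackets, for all 9 strain arrays in the fit (black), without NZB B (blue diamonds) and for LP B minus NZB A (red squares). The muscle, interferon and mitochondrial lists had the highest medians, at 0.39, 0.27 and 0.27, and each was lower without NZB B.

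The sign of several list medians near 0 turned under an alternative. The erythroid median of -0.01 turned in 8 of them, among them 0.18 without NZB B, 0.06 without LP B, 0.02 without NZB A, 0.16 with the floor at the 20th percentile and 0.16 with the title date as a block. The T and NK cell median was 0.16 without NZB B and 0.01 without LP B. Without NZB B the median was 0.01 for the neutrophil and acute phase list, -0.01 for the heat shock list and -0.02 for the metastasis list, each opposite to its value with the array. The detoxification list had a median of 0.07 under median centring, the macrophage list one of -0.03 without LP B, and the Ifi200 family one of 0.01 without NZB A.

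The 79 probe sets with a gap of 1 log2 unit or more were set against the other 5 strain arrays. Of the 44 higher in LP, 11 had only LP outside the range of those arrays, 10 only NZB, 2 both and 21 neither. Of the 35 lower in LP the counts were 9, 13, 5 and 8. The same counts over all tested probe sets are not given, so these do not show which name departs from the rest. Both NZB arrays were at the floor for 16 of the 44, and both LP arrays for 9 of the 35. Agt, Gjb1, Ccl5, Gbp2b and Myl2 were among those with LP outside, and Mup5, Col18a1 and H2-Ea among those with NZB outside. For Csn1s2a, Sat1, Fbp1 and A2m both groups lay outside, on opposite sides.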

How the data were processed

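Total RNA of mouse mammary tumours had been measured on mg_u74av2 arrays, per the labels. The deposited table gives 1 intensity per probe set and array on a linear scale; how the authors summarised probes and scaled arrays is not stated in what was used here. Log2 intensities of 12422 probe sets on 9 strain arrays (66 control probe sets and 1 array without a strain name left out) were quantile normalized and raised to a floor at the 30th percentile (4.75). The 9899 probe sets above the floor on at least 2 arrays were fitted in limma 3.58.1 (R 4.3.3) with 1 mean per strain name, a trended prior and 4 residual degrees of freedom. LP minus NZB was tested with Benjamini-Hochberg adjustment at 0.05. The number of arrays limits precision. The fit was tested on simulated data with normal noise and changes in LP alone. Those data had no floor, outlying array or title date effect, so they do not show how the fit fares under these.

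Symbols came from the platform annotation, updated through gene IDs: 10855 probe sets had 1 symbol, 396 several and 1237 none. List results use 1 probe set per gene, the brightest on the 4 arrays, which left 7098 genes. The named genes were the markers Csn1s2a, Mup5 and H2-D1, up to 12 genes each way with the widest gaps, and for each of 24 lists those past the test or the 2 with the smallest p. A further 45 genes were named after their values were seen: Csn1s1, Csn2, Csn3, Mfge8, Glycam1, Wap, Lalba, Muc1, H2-K1, B2m, H2-Aa, H2-Ab1, Ciita, Acta1, Mb, Myh1, Myh4, Ryr1, Rsad2, Isg15, Ifit2, Irf7, Apod, Retn, Lipe, Adipoq, Krt8, Krt18, Rrm1, Sdhb, Ndufs1, Wls, Arg1, Slpi, St6galnac2, Lpl, Cldn3, Elf3, Stat5a, Elf5, Kdr, Lep, Fasn, Fabp5 and Mgst1. The comparison, the lists and the named genes were chosen with earlier results of these data known. Further cell type markers are given for their values on the 4 arrays alone.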

Additional observations from a re-analysis of the deposited data

How the results depend on the processing

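In limma 1 probe set passed the test, 0 higher and 1 lower in LP. The count was 0 under median centring (506 at an unadjusted p under 0.05), with LP and NZB arrays only (537), without MOLF A and NZB B together (863), with the title date as a block (316) and with the array letter as a replicate block (539). It was 2 with the floor at the 20th percentile (1 higher, 1 lower), 2 with array weights (0 higher, 2 lower), 4 with the filter on the LP and NZB arrays (2 higher, 2 lower) and 7 with no filter (4 higher, 3 lower). With 1 array left out, the lone array of that name is taken to vary as much as arrays of the other names do. Leaving out 1 array gave from 0 to 6 (0 to 3 higher, 0 to 3 lower), with 0 without LP A (302) or LP B (618), 6 without NZB A and 1 without NZB B. Csn1s2a also lost its call with MOLF A and NZB B left out together (-1.77, adjusted p = 0.0739), under median centring (-1.49, adjusted p = 0.765) and with the letter as a block (adjusted p = 0.146); the cause was not tested. What the letters mark is not stated. LP A minus LP B and NZB A minus NZB B correlated at -0.02 over tested probe sets, a value that includes the outlying NZB B. Whether the letters mark a shared preparation was not tested. With no filter Ccl5 (adjusted p = 0.0416), Myl2 (0.0392) and St6galnac2 (0.0369) passed.

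Probe sets with a gap of 1 or more numbered 44 higher and 35 lower in LP, against 74 and 67 with the floor at the 20th percentile, and 53 and 26 under median centring. A gap of 0.5 gave 247 and 212, and a gap of 2 gave 3 and 3. Leaving out 1 array gave 76 to 822 higher and 77 to 939 lower, the highest counts both without NZB A.

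Of 113 probe sets named, leaving out genes given only as cell type markers, 104 kept their sign in every alternative. The other 9 did not. Lep was 0.12 within 1 title date. Under median centring Rpl13a was 0.10, a probe set of H2-D1 0.25 and H2-K1 0.44. With MOLF A and NZB B left out together H2-K1 was 0.084, B2m -0.086 and Ifi204 -0.0039, and with the title date as a block H2-K1 was 0.062 and B2m -0.17. Leaving out 1 array gave H2-K1 from -0.13 to 0.084, B2m from -0.086 to 0.12, Acta1 from -0.038 to 0.12, Csn3 from -0.013 to 0.30, Ifi202b from -1.61 to 0.0085 and Ifi204 from -0.0039 to 1.58. The number of arrays and the floor limit what can be said of dim genes, and NZB B limits any gene on which the NZB arrays differ.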
